A study of Mus musculus with 5 samples.

Results

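The genes described here encode the proteasome, its activators and assembly factors, and the enzymes that remove ubiquitin from proteins. They were taken from the deposited isoform table by symbol, as genes named Psma to Psmg with a number, Uchl, Usp or Otub with a number, leaving out the interferon-induced subunits Psmb8 and Psmb9. This gave 91 of 15154 genes and 324 of 50356 isoforms. They comprise 13 genes of the 20S core, 19 of the regulatory particle and its chaperones, 6 activators, inhibitors and assembly factors, 48 deubiquitinases, and 5 that carry such a symbol but belong to none of these. Psma8, Psmb1, Psmb5, Psmb11, Psmc2, Psmg1, Psmg2, Psmg4, Usp7 and Usp18 were not analysed here.

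Sensory neurons of the dorsal root ganglia (DRG) were set against granule neurons of the cerebellum (CGNs). Both came from C57bl/6j mice at P8 (the eighth postnatal day) and grew on a coat of poly-d-lysine with laminin before their polyadenylated RNA was sequenced. The DRG neurons had been 16 days in vitro in 3 libraries, each from the pooled ganglia of a pair of mice, with nerve growth factor and the antimitotic FuDR in the medium. The CGNs had been 16 hours in vitro in 2 libraries, each from 1 mouse. Time in culture and cell type changed together and cannot be told apart, and the study describes the DRG cultures as mostly but not wholly neuronal.

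The 26S proteasome is the main protease of the cytosol and nucleus. Its barrel-shaped 20S core is a stack of alpha and beta rings, and the beta rings hold the cutting sites. The 19S regulatory particle caps the barrel, binds proteins tagged with ubiquitin, strips the tag, unfolds the protein with a ring of ATPases and threads it inside. Deubiquitinases cut ubiquitin from proteins or from ubiquitin chains, either at the proteasome or elsewhere in the cell, and one of them, Uchl1, is among the most abundant proteins of neurons.

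Values are FPKM, fragments scaled to transcript length and library size, summed over the isoforms of a gene and scaled by the authors. The scaling left the libraries at different totals, from 51860685 to 62824363 FPKM in the DRG libraries and 22444463 and 37275184 FPKM in the CGN libraries. The median log2 fold change of DRG neurons over CGNs, on the scale of log2(FPKM + 50), was 0.59 over all 13275 genes tested, so a member's change is read here against that shift and under 3 other scalings (median ratio, quantile and equal total). CGN replicate 2 lay above CGN replicate 1, with a median ratio of 1.59 over all genes tested. Read counts per gene were not used here, so no counting error is given for single values, and a gene listed at or near 0 is not read as absent. Adjusted p-values reflect only how these 5 libraries vary, and no exact permutation test of 3 against 2 libraries can go below 0.1.

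Markers of the labelled cells were in place. The 9 sensory neuron markers listed summed to 414772 to 582724 FPKM in DRG libraries against 702 and 732 FPKM in CGN libraries, where Trpv1, Scn10a and Isl1 were listed at 0. The 9 granule neuron markers summed to 1029 to 1553 FPKM in DRG libraries against 154923 and 233989 FPKM in CGN libraries, and Pax6, Barhl1, Gabra6, Cbln3 and Neurod2 were listed at 0 in every DRG library. Markers of other cells also differed between the groups. The 7 Schwann and satellite glia markers summed to 87843 to 137258 FPKM in DRG libraries against 23316 and 31967 FPKM in CGN libraries, and 4 of 7 tested were higher and 1 lower. The 5 fibroblast markers summed to 22746 to 40868 FPKM in DRG libraries against 1079 and 2613 FPKM in CGN libraries, with 4 of 5 higher. The 8 macrophage and microglia markers summed to 376 to 1290 FPKM in DRG libraries against 5860.4 and 8305 FPKM in CGN libraries, and all 6 tested were lower, with Aif1, Itgam and Cx3cr1 at 0 in the DRG libraries. The 4 astrocyte and Bergmann glia markers summed to 803 to 1240.4 FPKM in DRG libraries against 9284 and 15991 FPKM in CGN libraries, with 3 lower and 1 higher, and Aqp4 was at 0 in every DRG library. The 6 cell division markers, of which 3 were lower and 1 higher, summed to 1704 to 3318 FPKM in DRG libraries against 1514 and 3462 FPKM in CGN libraries. Of 3 endothelial markers tested 1 was lower, and Tek was at 0 in every library. The part of these cells in the differences below was not tested.

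Most subunits of the 20S core tested were higher in DRG neurons, and none was called lower. Of 12 core genes tested, 9 were called higher and 3 did not pass, where 28.4% of all genes tested were called higher and 9.22% lower. The median log2 fold change of the core genes was 1.37, against 0.59 for all genes. All DRG libraries lay above both CGN libraries for 10 of the 12 genes, as they did for 43.5% of all genes tested (for 16.8% all DRG libraries lay below), and the groups overlapped for the other 2. In bulk cultures, fewer cells of a type and less RNA per cell cannot be told apart. As a share of all FPKM in a library, which no library-wide factor changes, the 13 core genes took 0.333 to 0.374% in DRG libraries and 0.220 and 0.244% in CGN libraries.

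**Figure D1:**
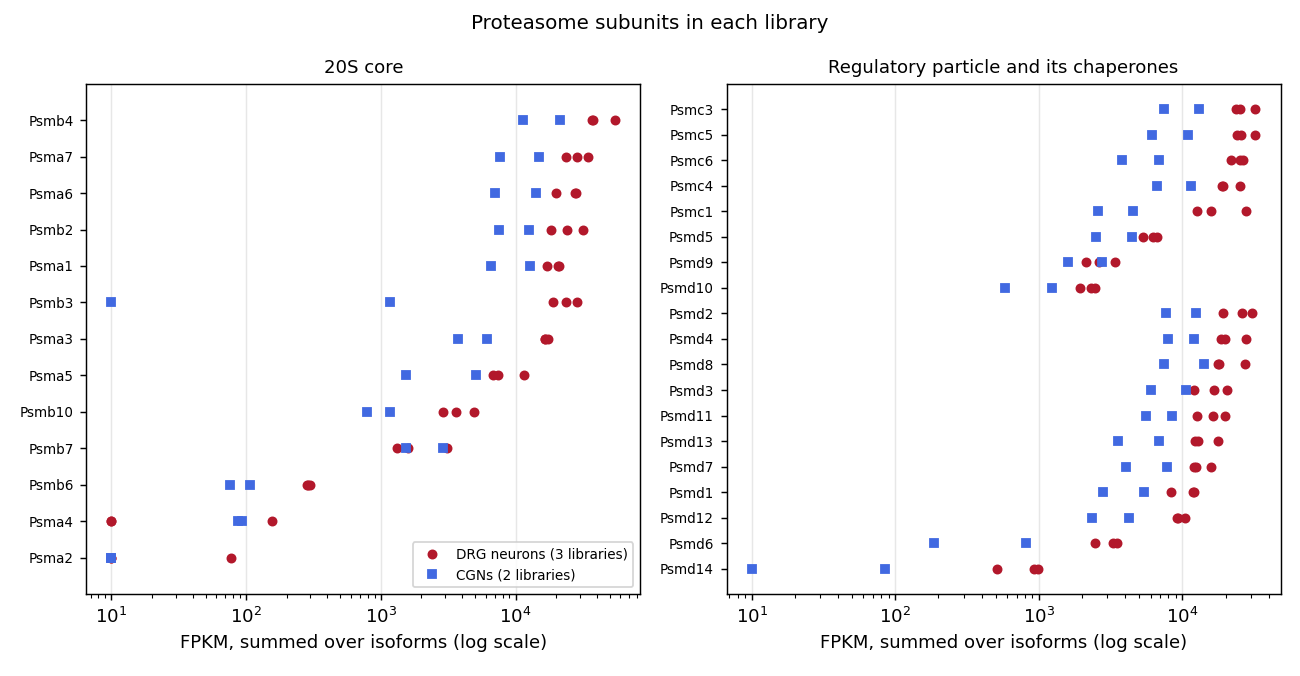
FPKM of each 20S core gene (left) and regulatory particle gene (right) on a log axis, with 1 red circle for each of 3 DRG libraries and 1 blue square for each of 2 CGN libraries. Values under 10 FPKM are drawn at 10, as for Psmb3 in CGN replicate 1. Most subunits lie in a band above 2000 FPKM with the DRG libraries to the right, and Psma2, Psma4, Psmb6 and Psmd14 lie far below it.

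The most abundant core gene, Psmb4, is a beta ring subunit without a cutting site of its own. It had 54722, 36840.2 and 37545 FPKM in the 3 DRG libraries, against 11299 and 21408 FPKM in the CGN libraries (log2 fold change 1.44 ± 0.43 (SE), limma adjusted p = 0.026). Psma7 and Psma6, of the alpha ring that gates entry to the barrel, were next in mean level over the 5 libraries. Psma7 had 34198, 23804 and 28344 FPKM in DRG neurons, against 7717 and 14833 FPKM in CGNs (log2 fold change 1.41 ± 0.40 (SE), limma adjusted p = 0.022). Psma6 had 27983, 27737 and 20107 FPKM in DRG neurons, against 7028 and 14070.5 FPKM in CGNs (log2 fold change 1.32 ± 0.40 (SE), limma adjusted p = 0.028). In each of these 3 genes the lowest DRG library lay above the higher CGN library. Psma1, an alpha subunit and the core gene nearest to the median of all members (0.98), had a log2 fold change of 1.08 (limma adjusted p = 0.048). Psmb2, a beta subunit, had a log2 fold change of 1.29 (limma adjusted p = 0.029). Neither was called under any of the 3 other scalings, and Psma1 also lost the call with a pseudocount of 1 or 10.

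Larger fold changes were found for Psma3, Psmb10 and Psmb3. Psmb10, the interferon-inducible form of the trypsin-like beta subunit, had 4869, 3615 and 2913 FPKM in the 3 DRG libraries, against 793 and 1169 FPKM in the CGN libraries (log2 fold change 1.89 ± 0.39 (SE), limma adjusted p = 0.0049). The ratio of means was 3.87, and it was called under all 15 alternatives run. Its constitutive counterpart Psmb7 overlapped between the groups, with 3109, 1317 and 1582 FPKM in DRG neurons, against 2899 and 1533 FPKM in CGNs (log2 fold change -0.17 ± 0.48 (SE), limma adjusted p = 0.8). Of 5 interferon response genes tested, Ifit1 and Ifit3 were higher and 3 did not pass. The 6 such genes listed summed to 3676 to 4205 FPKM in DRG libraries against 2398 and 1355 FPKM in CGN libraries, and their part in the level of Psmb10 was not tested. Psmb6, which carries the caspase-like site, had 298, 287 and 282 FPKM in DRG neurons, against 107 and 76.0 FPKM in CGNs and did not pass the test (log2 fold change 1.27 ± 0.56 (SE), limma adjusted p = 0.1), although the DRG libraries lay above both CGN libraries.

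Psma3, an alpha subunit, had 17497, 16438 and 16616 FPKM in the 3 DRG libraries, against 3733 and 6165 FPKM in the CGN libraries (log2 fold change 1.80 ± 0.34 (SE), limma adjusted p = 0.0034), and Psma5, another alpha subunit, 11607, 7463 and 6812 FPKM in DRG neurons, against 1533 and 5067 FPKM in CGNs (log2 fold change 1.57 ± 0.49 (SE), limma adjusted p = 0.033). Psmb3, a beta subunit without a cutting site, showed the largest difference of any member, with 28575, 19073 and 23459 FPKM in DRG neurons, against 1.20 and 1173 FPKM in CGNs (log2 fold change 6.55 ± 1.01 (SE), limma adjusted p = 0.0013). The table lists only assembled isoforms for these 3 genes, 8, 1 and 4 of them, and no reference transcript. The CGN libraries of Psmb3 also differed widely from each other, one being near 0.

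Several of these genes hold sequence that is also found elsewhere in the genome. Of the 50-base windows of the gene's transcripts (GENCODE M1 on NCBIM37), 63.5% were also found elsewhere in the genome for Psmb3, 56.6% for Psma5, 33.9% for Psma4 and 29.4% for Psma3, against 0.00% for Psmb4, Psma7, Psma6 and Psmb10. For Psmb7 it was 12.8%, and the assembled isoform Psmb7_j1 held 99.9 to 100.0% of the FPKM of that gene in the 5 libraries. The alpha subunit Psma4 had 0, 0 and 155 FPKM in DRG neurons, against 93.5 and 87.7 FPKM in CGNs (log2 fold change -0.81 ± 0.71 (SE), limma adjusted p = 0.4) and Psma2, another, was below the filter, with 0, 1.06 and 77.7 FPKM in DRG neurons against 0.01 and 0 FPKM in CGNs. Both are constitutive subunits, and both have 1 assembled isoform and no reference transcript in the table. Of the 24 core and regulatory particle genes with under 5% of windows elsewhere, 23 were tested and 18 were called higher, with a median log2 fold change of 1.33. Of the 8 genes with 5% or more, 6 were called higher, with a median of 1.45. Of all genes tested, 28.4% were called higher and 9.22% lower. Median ratio scaling, quantile normalization and equal total FPKM called 15, 9 and 9 genes of the first set higher. They called 4, 3 and 3 of the second set higher, and 21.8, 22.4 and 17.2% of all genes tested. The part of copied sequence in single values was not tested.

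**Figure D2:**
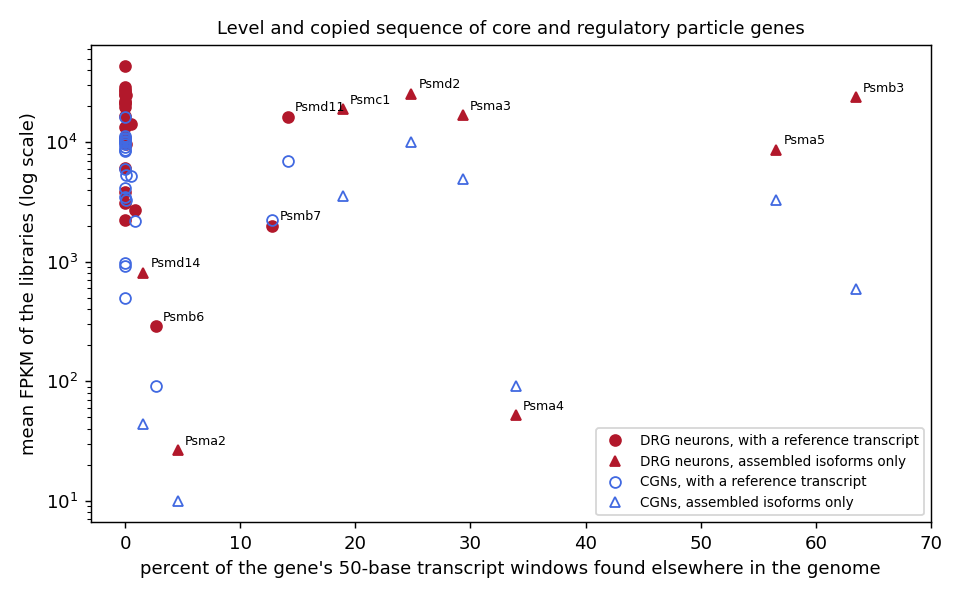
Mean FPKM (log axis) of core and regulatory particle genes against the percent of their 50-base transcript windows found elsewhere in the genome, filled red for DRG neurons and open blue for CGNs. Triangles mark genes with assembled isoforms only, which hold 6 of the 8 genes with 5% or more of windows elsewhere, and values under 10 FPKM are drawn at 10.

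The core calls depended on the libraries and on the scaling. Without CGN replicate 1, 3 of the 9 genes were still called (Psmb3, Psma3 and Psmb10), and without DRG replicate 1, 4 were. With median ratio scaling 6 core genes were called higher, where 21.8% of all genes were called higher and 20.7% lower. With equal total FPKM 4 were called higher, where 17.2% of all genes were higher and 26.1% lower. With quantile normalization 3 were called higher, where 22.4% of all genes were higher and 21.1% lower. No core gene was called lower under these 3 scalings, and 10 of 12 were above 0 with median ratio scaling, which puts the median of all genes at -0.02.

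The regulatory particle moved the same way. Of 19 genes tested, 15 were called higher in DRG neurons and none lower, where 28.4% of all genes tested were called higher and 9.22% lower. The median log2 fold change of the 19 genes was 1.34. The DRG libraries lay above both CGN libraries for 18 of the 19, as they did for 43.5% of all genes tested. The 19 genes took 0.477 to 0.524% of all FPKM in DRG libraries and 0.353 and 0.370% in CGN libraries. All 5 ATPase genes, 9 of 11 non-ATPase genes and 1 of 3 chaperones were called.

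The ATPases form the ring that unfolds substrates. Psmc3 and Psmc5 had the highest means over the 5 libraries, and for both the DRG range lay wholly above the CGN values. However, Psmc4 lay above Psmc5 in both CGN libraries. Psmc6 lay above Psmc3 and Psmc5 in DRG replicate 2, and Psmc1 above them in DRG replicate 3. Psmc3 had 32195, 25065 and 23653 FPKM in DRG neurons, against 7430.1 and 12952 FPKM in CGNs (log2 fold change 1.44 ± 0.38 (SE), limma adjusted p = 0.016). Psmc5 had 32218, 25730.2 and 24074 FPKM in DRG neurons, against 6184 and 10908 FPKM in CGNs (log2 fold change 1.72 ± 0.38 (SE), limma adjusted p = 0.0069). Psmc6 had 25361, 26488 and 21900.4 FPKM in the 3 DRG libraries, against 3814 and 6850.5 FPKM in the CGN libraries (log2 fold change 2.25 ± 0.36 (SE), limma adjusted p = 0.0015), with every DRG library far above both CGN libraries. Psmc1, listed as 8 assembled isoforms with 18.9% of windows elsewhere, had 15926, 12704 and 27708 FPKM in DRG neurons, against 2599 and 4494 FPKM in CGNs (log2 fold change 2.36 ± 0.42 (SE), limma adjusted p = 0.0025). Psmc4 had a log2 fold change of 1.25 (limma adjusted p = 0.026). Psmc6 and Psmc1 were called under every alternative in which they were tested.

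Among the non-ATPase subunits, Psmd2, the large scaffold of the base, had the highest mean over the 5 libraries, with 30569, 19281 and 26073 FPKM in DRG neurons, against 7732 and 12392 FPKM in CGNs (log2 fold change 1.34 ± 0.38 (SE), limma adjusted p = 0.022). In the CGNs alone Psmd8 had a higher mean. Psmd2 too is listed only as assembled isoforms, and 24.9% of its windows lay elsewhere. The lid subunit Psmd6 had 3295, 3521 and 2447 FPKM in DRG neurons, against 186 and 810.2 FPKM in CGNs (log2 fold change 2.78 ± 0.56 (SE), limma adjusted p = 0.0045). Psmd12 and Psmd13, also of the lid, had log2 fold changes of 1.60 (limma adjusted p = 0.0066) and 1.50 (limma adjusted p = 0.014). The scaffold Psmd1 and the lid subunits Psmd11 and Psmd7 had values of 1.43 (limma adjusted p = 0.016), 1.22 (limma adjusted p = 0.026) and 1.24 (limma adjusted p = 0.027), and Psmd4, the ubiquitin receptor known as Rpn10, 1.15 (limma adjusted p = 0.035). Psmd3 and Psmd8, of the lid, did not pass, at 0.99 (limma adjusted p = 0.069) and 0.99 (limma adjusted p = 0.078), with their DRG libraries above both CGN libraries. Psmc4, Psmd1, Psmd4, Psmd7, Psmd8, Psmd11, Psmd12 and Psmd13, like Psma2, Psma4 and Psmb2 above, were singled out after their values were seen.

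Psmd14 is the deubiquitinase of the lid, which removes the ubiquitin chain as the substrate enters. It had 983, 509 and 924 FPKM in the 3 DRG libraries, against 85.1 and 2.27 FPKM in the CGN libraries (log2 fold change 3.30 ± 0.65 (SE), limma adjusted p = 0.0043). The DRG libraries were all above both CGN libraries, but every library was below all the other non-ATPase subunits listed, and the only listed isoform is an assembled one. In the DRG libraries 23 to 24 of 28 constitutive core and regulatory particle subunits were at 2000 FPKM or more, and in both CGN libraries 21 were. Psma2, Psma4, Psmb6 and Psmd14 were under 1000 FPKM in all 5 libraries.

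Chaperones help build the base and leave before the particle is complete. Psmd10 (gankyrin) had 2318, 2450.3 and 1929.9 FPKM in DRG neurons, against 579 and 1242 FPKM in CGNs (log2 fold change 1.33 ± 0.44 (SE), limma adjusted p = 0.038). Psmd5 had 6228, 6660.1 and 5292 FPKM in DRG neurons, against 2512 and 4427 FPKM in CGNs (log2 fold change 0.84 ± 0.35 (SE), limma adjusted p = 0.086), and Psmd9 3379, 2624 and 2137 FPKM in DRG neurons, against 1590.0 and 2742 FPKM in CGNs (log2 fold change 0.34 ± 0.39 (SE), limma adjusted p = 0.52). Psmd10 alone passed, and the groups overlapped for Psmd9, whose fold change was below 0 under all 3 other scalings.

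Without CGN replicate 1, 6 of the 15 regulatory particle genes were still called (Psmc5, Psmc6, Psmc1, Psmd12, Psmd6 and Psmd14), and without DRG replicate 1, 8 were. Median ratio scaling, quantile normalization and equal total FPKM called 13, 9 and 8 of the 19 genes tested higher, and none lower. Of all genes tested, these scalings called 21.8, 22.4 and 17.2% higher and 20.7, 21.1 and 26.1% lower.

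**Figure D3:**
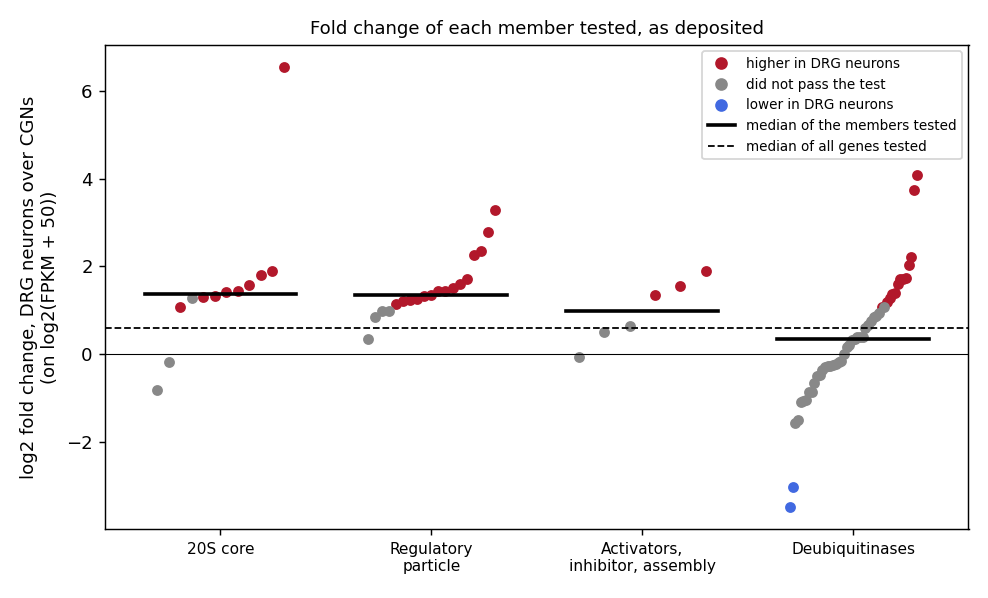
Log2 fold change of DRG neurons over CGNs, on log2(FPKM + 50), for each member tested, by role group, with 1 dot per gene and colour for the limma call. The medians of the core (1.37) and regulatory particle (1.34) lie above the dashed median of all genes (0.59), and that of the deubiquitinases (0.34) lies below it.

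The factors that cap, inhibit or assemble the proteasome were split. Of 6 tested, 3 were called higher, where 28.4% of all genes tested were. The median log2 fold change of the 6 was 0.99. Together they took 0.0463 to 0.0497% of all FPKM in DRG libraries and 0.0461 and 0.0512% in CGN libraries, ranges that overlap. Psmg3, an assembly chaperone of the alpha ring, had 6615, 5069.7 and 3989.9 FPKM in DRG neurons, against 1231 and 2343 FPKM in CGNs (log2 fold change 1.56 ± 0.40 (SE), limma adjusted p = 0.013), and was the only one called under all 3 other scalings. Psmf1, an inhibitor of the core known as PI31, had 3797, 3686 and 2988 FPKM in DRG neurons, against 1068 and 1687 FPKM in CGNs (log2 fold change 1.34 ± 0.36 (SE), limma adjusted p = 0.018). Without CGN replicate 1 none of the 6 was called, and without CGN replicate 2, 5 were.

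Psme1 and Psme2 form the 11S activator PA28. Psme2 had 3895, 2992 and 1550.2 FPKM in DRG neurons, against 332 and 1326 FPKM in CGNs (log2 fold change 1.89 ± 0.60 (SE), limma adjusted p = 0.035), while its partner Psme1 was listed at 128, 0.27 and 0.26 FPKM in DRG neurons, against 0.1 and 78.8 FPKM in CGNs (log2 fold change -0.07 ± 0.72 (SE), limma adjusted p = 0.95), and the groups overlapped. Each has 1 assembled isoform and no reference transcript. The copy Psme2b-ps, on chromosome 11, had 7304, 6559 and 4956 FPKM in DRG neurons, against 2038 and 3556 FPKM in CGNs (log2 fold change 1.19 ± 0.37 (SE), limma adjusted p = 0.03) and shares 69.6% of the 50-base coding windows of Psme2, so the split of reads between the pair is uncertain. Neither of the pair was called under any of the 3 other scalings. Psme3, the nuclear PA28 subunit, had 9238, 7111 and 7223 FPKM in DRG neurons, against 3798 and 6601 FPKM in CGNs (log2 fold change 0.63 ± 0.35 (SE), limma adjusted p = 0.18). Psme4, the activator PA200, had 6489, 6908 and 9153 FPKM in DRG neurons, against 3914 and 7041 FPKM in CGNs (log2 fold change 0.50 ± 0.36 (SE), limma adjusted p = 0.31). Neither passed, and both were below 0 under the 3 other scalings.

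Of 48 deubiquitinases tested, 13 were called higher, 2 lower and 33 did not pass, a share of higher calls near that of all genes (28.4%), with a median log2 fold change of 0.34, below that of all genes. The DRG libraries lay above both CGN libraries for 18 of the 48 genes and below them for 7, and the groups overlapped for 23. Of all genes tested, 43.5% lay above and 16.8% below in this way. Their shares of all FPKM differed according to 1 gene. With Uchl1 the 48 genes took 0.922 to 1.02% in DRG libraries and 0.418 and 0.415% in CGN libraries, and without it the other 47 took 0.211 to 0.258% in DRG libraries and 0.314 and 0.306% in CGN libraries.

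Uchl1, the neuronal ubiquitin hydrolase also called PGP 9.5, had 489284, 344373 and 410099 FPKM in the 3 DRG libraries, against 23265 and 40864 FPKM in the CGN libraries (log2 fold change 3.73 ± 0.61 (SE), limma adjusted p = 0.0017). Every DRG library lay far above both CGN libraries. The ratio of means was 12.9, and Uchl1 was called under every alternative except the replicate block. It ranked as number 2 among all genes in each DRG library, and as number 71 and 65 in the CGN libraries. It supplied 72.0 to 78.7% of all deubiquitinase FPKM in DRG libraries and 24.8 and 26.4% in CGN libraries, where it was still the highest. The gene lies at chr5:67067463-67078489 (mm9) and is listed as 1 reference isoform, with none of its windows found elsewhere.

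**Figure D4:**
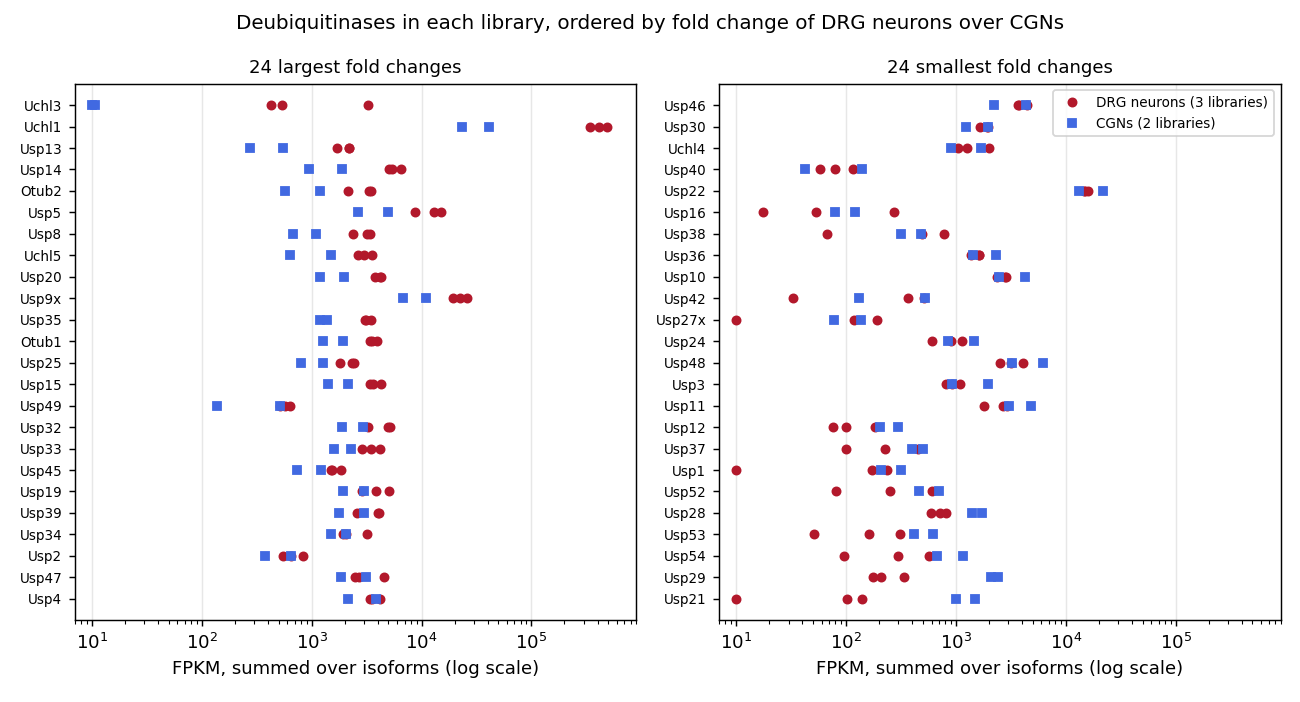
FPKM of the 48 deubiquitinases on a log axis, ordered from the largest log2 fold change (top left) to the smallest (bottom right), with red circles for 3 DRG libraries and blue squares for 2 CGN libraries. Values under 10 FPKM are drawn at 10. Uchl1 lies alone at 344373 to 489284 FPKM in DRG neurons, and Usp29 and Usp21, at the bottom right, are the 2 called lower.

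The deubiquitinases that bind the proteasome were all higher. Besides Psmd14, these are Usp14 and Uchl5, which trim chains on the regulatory particle. Usp14 had 5386, 6445 and 5085 FPKM in the 3 DRG libraries, against 943 and 1869.7 FPKM in the CGN libraries (log2 fold change 2.04 ± 0.38 (SE), limma adjusted p = 0.0032), and was called under every alternative. Uchl5 had 2998, 3573 and 2665 FPKM in DRG neurons, against 634 and 1497 FPKM in CGNs (log2 fold change 1.59 ± 0.43 (SE), limma adjusted p = 0.018). Its call was lost with equal total FPKM, with the replicate block and without CGN replicate 1. In both genes the lowest DRG library lay above the higher CGN library.

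Uchl3, a small hydrolase that also removes the ubiquitin-like Nedd8, was listed at 535, 429.7 and 3229.5 FPKM in DRG neurons, against 10.6 and 3.75 FPKM in CGNs (log2 fold change 4.09 ± 0.85 (SE), limma adjusted p = 0.0052). DRG replicate 3 was far above the other DRG libraries, and both CGN libraries were near 0. Only 3 assembled isoforms are listed. Uchl4, an intronless copy on chromosome 9, overlapped between the groups, with 1263, 1997 and 1054 FPKM in DRG neurons, against 899.5 and 1708 FPKM in CGNs (log2 fold change 0.15 ± 0.47 (SE), limma adjusted p = 0.82). The coding sequences of the pair, 693 bases in Uchl3 and 702 in Uchl4, share 33.9% of the 50-base windows of Uchl3, with a longest exact run of 150 bases. The 2 stretches below, coding bases 108 to 197 of each (GENCODE M1, NCBIM37), are shown because a short read inside the shared run could come from either gene, with the 5 differing bases in capitals. The stretch of Uchl4 lies at chr9:64083153-64083242 on the plus strand, and Uchl3 lies on chromosome 14.
Uchl3: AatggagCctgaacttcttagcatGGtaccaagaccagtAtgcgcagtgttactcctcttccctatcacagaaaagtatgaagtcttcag
Uchl4: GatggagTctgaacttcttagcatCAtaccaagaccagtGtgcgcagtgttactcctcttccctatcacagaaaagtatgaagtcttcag
The capitals all fall in the first part of the stretch, and the rest is the start of the shared run. How reads were divided between these genes cannot be told from the table.

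Both Otub genes were called higher. Otub1, which cuts lysine-48-linked chains and also blocks ubiquitin transfer, had 3961, 3578 and 3400.0 FPKM in DRG neurons, against 1276 and 1918 FPKM in CGNs (log2 fold change 1.19 ± 0.35 (SE), limma adjusted p = 0.025), and Otub2, a paralog, 3433, 3315 and 2138 FPKM in DRG neurons, against 578 and 1201 FPKM in CGNs (log2 fold change 1.73 ± 0.44 (SE), limma adjusted p = 0.013). Both lost the call with equal total FPKM and without CGN replicate 1. Otub1 also lost it with limma without trend, with the replicate block and without any one of the DRG replicates, and Otub2 with reference transcripts only.

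Of the 42 Usp genes 8 were called higher and 2 lower, where 28.4% of all genes tested were called higher and 9.22% lower. The median log2 fold change of the Usp genes was 0.11, below the 0.59 of all genes. Usp9x, a large X-linked deubiquitinase, was the most abundant Usp gene of DRG neurons, with 19166, 22569.5 and 25690.0 FPKM in DRG neurons, against 6846 and 10902 FPKM in CGNs (log2 fold change 1.36 ± 0.36 (SE), limma adjusted p = 0.016). It is listed as 11 assembled isoforms. Of its windows, 38.4% were found outside the bounds recorded for the gene, most of them in the adjoining part of chromosome X. Whether that part is a copy or the gene's own sequence was not tested. Usp5, which takes apart free ubiquitin chains, had 15119, 8749 and 12859.6 FPKM in DRG neurons, against 2618 and 4913 FPKM in CGNs (log2 fold change 1.72 ± 0.39 (SE), limma adjusted p = 0.0083). Usp8, which acts on endosomal cargo, had 3364, 3164 and 2395 FPKM in DRG neurons, against 681 and 1097 FPKM in CGNs (log2 fold change 1.71 ± 0.39 (SE), limma adjusted p = 0.0087). Usp13, the close relative of Usp5, had 2173, 1709.8 and 2166 FPKM in DRG neurons, against 551 and 272 FPKM in CGNs (log2 fold change 2.22 ± 0.46 (SE), limma adjusted p = 0.0053). Usp20, Usp15 and Usp35 had log2 fold changes of 1.39 (limma adjusted p = 0.014), 1.08 (limma adjusted p = 0.037) and 1.29 (limma adjusted p = 0.016). In each of these 7 genes the DRG libraries lay above both CGN libraries. With reference transcripts only, Usp35 had a log2 fold change of -1.72. Usp8, Usp15 and Usp20 were singled out after their values were seen.

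The genes called lower were Usp29 and Usp21. Usp29, next to the imprinted gene Peg3, had 207, 339 and 178 FPKM in the 3 DRG libraries, against 2107 and 2431 FPKM in the CGN libraries (log2 fold change -3.03 ± 0.52 (SE), limma adjusted p = 0.002), and all 7 of its listed isoforms are assembled. Usp21, which acts on histone H2A, had 102, 139.7 and 0 FPKM in DRG neurons, against 1478 and 1006 FPKM in CGNs (log2 fold change -3.49 ± 0.71 (SE), limma adjusted p = 0.0049), and 1 DRG library was listed at essentially 0. For both, every DRG library lay below both CGN libraries. Usp29 was called under all alternatives in which it was tested, and Usp21 was lost with a pseudocount of 1 and without CGN replicate 1.

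Usp22, the deubiquitinase of the SAGA complex, was the highest Usp gene of the CGNs and the highest deubiquitinase there after Uchl1. It had 15084, 14572 and 15949 FPKM in DRG neurons, against 13249 and 21913 FPKM in CGNs (log2 fold change -0.17 ± 0.35 (SE), limma adjusted p = 0.74). It did not pass with the deposited values, for which the groups overlapped, and was called lower under all 3 other scalings. In all, 8 deubiquitinases did not pass with the deposited values and were called lower under all 3 other scalings, the others being Usp48, Usp11, Usp10, Usp36, Usp3, Usp28 and Usp54. Usp11 had 2684, 2901 and 1819 FPKM in DRG neurons, against 3063 and 4837 FPKM in CGNs and Usp28, a nuclear deubiquitinase of the DNA damage response, 588, 719 and 816 FPKM in DRG neurons, against 1404 and 1733 FPKM in CGNs, and for both every DRG library lay below both CGN libraries. These 2 were singled out after their values were seen. Usp49, the deubiquitinase nearest the median of all members (0.98), had a log2 fold change of 0.94 (limma adjusted p = 0.26).

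The scaling moved the balance of the deubiquitinase calls, as it did that of all genes. Of the 48 genes, the deposited values gave 13 higher and 2 lower, median ratio scaling 10 and 11, quantile normalization 10 and 10, and equal total FPKM 5 and 15. For all genes tested, 28.4% were higher and 9.22% lower with the deposited values, and 21.8 and 20.7% with median ratio scaling. These shares were 22.4 and 21.1% with quantile normalization, and 17.2 and 26.1% with equal total FPKM. Only Uchl1, Uchl3, Usp5, Usp8 and Usp14 were called higher under all 3 scalings, and 10 genes were called lower under all 3. Without CGN replicate 1 the deposited values gave 8 higher and 1 lower. Not every gene in the group is an active enzyme, since Usp39 is a splicing factor and Usp52 a subunit of a deadenylase.

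**Figure D5:**
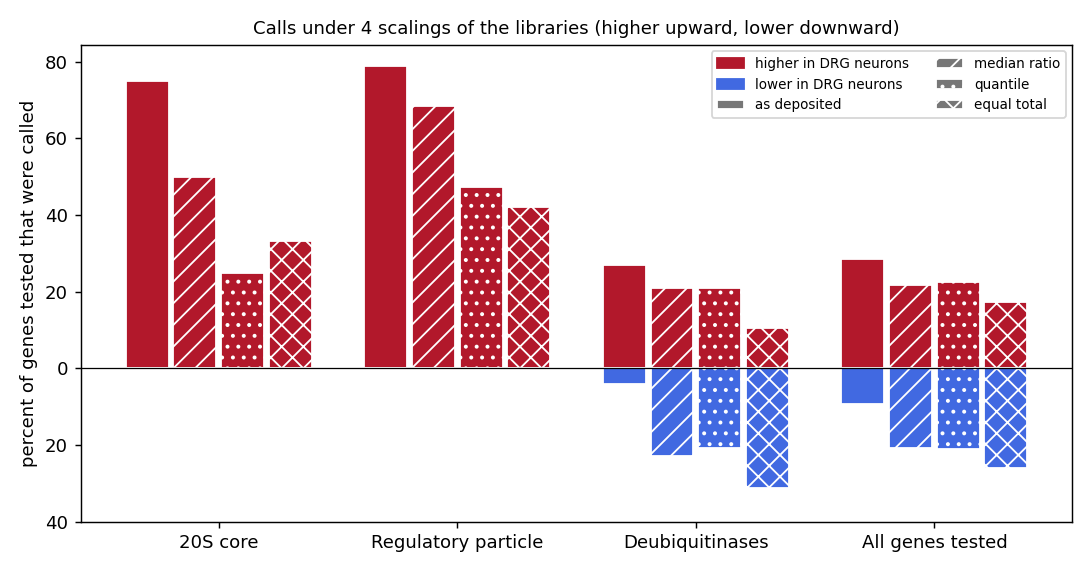
Percent of the genes tested that were called higher (red, upward) or lower (blue, downward) in DRG neurons by limma at an adjusted p under 0.05, under 4 scalings of the libraries. The core and regulatory particle bars point upward under all 4 scalings. The deubiquitinase bars turn from 13 higher and 2 lower genes with the deposited values to 5 higher and 15 lower with equal total FPKM. The bars of all genes turn the same way, from 28.4% higher and 9.22% lower to 17.2% higher and 26.1% lower.

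The genes that carry such a symbol but belong to none of these groups were Psmc3ip, Uchl5ip, Usp6nl, Psmb6-ps and Psme2b-ps. Psmc3ip, a factor of meiotic recombination, had 0, 470.2 and 13.6 FPKM in DRG neurons, against 15.4 and 168 FPKM in CGNs, and Usp6nl, a GTPase-activating protein, 380.3, 51.0 and 270.0 FPKM in DRG neurons, against 15.8 and 864 FPKM in CGNs. Neither passed (limma adjusted p = 0.99 and 0.99), and the groups overlapped for both.

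Single isoforms gave fewer calls. Of 324 member isoforms, 235 were assembled by the authors and 89 are reference transcripts. Of 233 tested, 23 were called higher and 11 lower, where 9.63% of all isoforms tested were called higher and 5.04% lower. The authors' lower confidence bound of the FPKM was above 0 for 159 to 179 of the 324 in the DRG libraries and for 179 and 194 in the CGN libraries. Leaving out DRG replicate 1, 2 or 3 left 2, 3 and 2 isoforms called higher, and leaving out CGN replicate 1 or 2 left 9 and 42. Lower calls then numbered 0, 1, 1, 0 and 0.

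Among the isoforms with the largest changes, those of Psma3 ran in opposite directions. Isoform Psma3_j4 had 3018, 2548 and 2685 FPKM in DRG neurons, against 8.19 and 1.46 FPKM in CGNs (log2 fold change 5.67 ± 0.47 (SE), limma adjusted p = 0.0031). Isoform Psma3_j3 had 1.14, 1.97 and 0.25 FPKM in DRG neurons, against 599.7 and 511 FPKM in CGNs (log2 fold change -3.56 ± 0.63 (SE), limma adjusted p = 0.02). Both are assembled isoforms of the locus chr12:72068536-72096921 (mm9), which has 8 listed isoforms. For Psma3_j4 the authors' confidence bounds ran from 0 to 148 and 185 FPKM in the CGN libraries. For Psma3_j3 they ran from 0 to between 229 and 234 FPKM in the DRG libraries. How reads were divided among the isoforms of this locus was not tested. Psmb3_j4, Usp13_j6 and Usp35_j4 were the other assembled isoforms with the largest rises, at log2 fold changes of 6.56, 3.93 and 3.48 (limma adjusted p = 0.023, 0.017 and 0.025). The reference isoform of Uchl1 was also among them. Usp29_j5, Usp54_j7 and Usp34_j4 were lower, at -3.94, -3.66 and -3.25 (limma adjusted p = 0.028, 0.02 and 0.025), as was the reference isoform of Usp21, at -3.85 (limma adjusted p = 0.032).

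The leading isoform, the one with the largest FPKM of its gene, could be compared for the 56 members with more than 1 isoform. It was the same in all 5 libraries for 19 of them and differed between all DRG and all CGN libraries for 2, Usp5 and Psme4. For Usp5, the reference isoform uc009dsa.1 held 58.0, 70.1 and 66.8% of the FPKM of the gene in DRG libraries, and uc009dsb.1 held 84.5 and 51.9% in CGN libraries. The first isoform had 8772, 6130.5 and 8596 FPKM in DRG neurons, against 405 and 2364 FPKM in CGNs, and the second 6347, 2618 and 4264 FPKM in DRG neurons, against 2213 and 2549 FPKM in CGNs. The first differed far more than the second, and in CGN replicate 2 the pair was close to even. For Psme4, the reference isoform led in DRG libraries, with 62.3, 52.5 and 52.1%, and the assembled isoform Psme4_j4 led in CGN libraries, with 34.5 and 38.0%. By the mean of the libraries 28 of the 56 members differed in their leading isoform between the cell types, and by the grouped FPKM of the authors 24 did. The matching shares over all genes with more than 1 isoform were not computed. These counts are therefore not read as particular to the members.

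Other genes of the pathway were taken from a list of 44, of which 34 were listed and tested. Of these 16 were higher and none lower with the deposited values, where 28.4% of all genes were higher and 9.22% lower. With quantile normalization 10 were higher and 8 lower, with equal total FPKM 8 and 8, and with median ratio scaling 11 and 6. The segregase Vcp was not analysed here. Nfe2l1, the transcription factor that activates proteasome genes when the proteasome is inhibited, had 33955, 30915 and 31599 FPKM in the 3 DRG libraries, against 3054 and 5634 FPKM in the CGN libraries (log2 fold change 2.94 ± 0.36 (SE), limma adjusted p = 3.8e-04). Its relative Nfe2l2, the regulator of the oxidative stress response, had 3808, 3599.6 and 2565 FPKM in DRG neurons, against 117 and 39.4 FPKM in CGNs (log2 fold change 4.77 ± 0.50 (SE), limma adjusted p = 1.7e-04). Pomp, the maturation factor of the core, had 31877, 26325 and 24779 FPKM in DRG neurons, against 4850.5 and 9456 FPKM in CGNs (log2 fold change 2.01 ± 0.38 (SE), limma adjusted p = 0.0036). In these 3 genes the DRG libraries lay far above both CGN libraries, and all 3 were called under the 3 other scalings. The immunoproteasome subunit Psmb8 had 2245, 1463 and 1827 FPKM in DRG neurons, against 422 and 589.7 FPKM in CGNs (log2 fold change 1.77 ± 0.44 (SE), limma adjusted p = 0.012), and Shfm1, a small lid subunit, 35625, 31006 and 26785 FPKM in DRG neurons, against 7768 and 18352 FPKM in CGNs (log2 fold change 1.37 ± 0.43 (SE), limma adjusted p = 0.033). Psmb8 was also called under the 3 other scalings, and Shfm1 only with median ratio scaling among them. The ubiquitin receptor Adrm1 did not pass, at 0.86 (limma adjusted p = 0.1).

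Of the activating enzymes that load ubiquitin, Ube1l2 (Uba6) was higher, at 1.50 (limma adjusted p = 0.045), and Ube1x (Uba1), the main one, did not pass, with 33378, 22328 and 25643 FPKM in DRG neurons, against 13745 and 23519.5 FPKM in CGNs (log2 fold change 0.57 ± 0.40 (SE), limma adjusted p = 0.28). Ube1l2 was called under none of the 3 other scalings, and Ube1x was called lower with quantile normalization, at -0.66. Of 9 genes of the p97 cofactors and shuttle factors, 5 were higher. Among them were the p97 cofactors Nploc4 and Ufd1l, at 1.58 (limma adjusted p = 0.0062) and 1.79 (limma adjusted p = 0.004), the cofactor Nsfl1c, at 3.88 (limma adjusted p = 0.017), and the shuttle factor Rad23b, at 1.02 (limma adjusted p = 0.047). Nsfl1c, with 13.2 and 1492 FPKM in the CGN libraries, and Rad23b were called under none of the 3 other scalings. The shuttle proteins Ubqln1, Ubqln2 and Ubqln4 and the protease Ddi2 did not pass, and Ubqln2, Ubqln4 and Ddi2 were called lower under all 3 other scalings. Of 17 other deubiquitinases 5 were higher and none lower with the deposited values, a share of higher calls near that of all genes (28.4%), with a median log2 fold change of 0.43. With quantile normalization 3 were higher and 4 lower, with equal total FPKM 1 and 5, and with median ratio scaling 3 and 3. Cops5, the metalloprotease subunit of the COP9 signalosome and a relative of Psmd14, had 24013, 20886 and 22450.3 FPKM in DRG neurons, against 3820.3 and 6994 FPKM in CGNs (log2 fold change 2.11 ± 0.36 (SE), limma adjusted p = 0.0021). The Machado-Joseph family member Josd2 had a log2 fold change of 1.51 (limma adjusted p = 0.011), the endosomal Stambp 1.39 (limma adjusted p = 0.017), and Vcpip1 and Otud7b 1.12 (limma adjusted p = 0.04) and 1.26 (limma adjusted p = 0.045). Vcpip1 and Otud7b were called under none of the 3 other scalings, and Josd2 and Stambp lost the call with equal total FPKM.

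Promoters of the members (250 bases before to 50 after the start, RefSeq on GRCm38.p6) were searched for letters bound by known regulators, on either strand, with 27 of 32 core and regulatory particle genes and 38 of 48 deubiquitinases matched. The antioxidant response element, which Nfe2l1 and Nfe2l2 bind, was searched as TGACNNNGC. It was in 4 of 27 core and regulatory particle promoters (14.8%), 10 of 38 deubiquitinase promoters (26.3%) and 15.1% of the 7330 promoters of genes tested, or 12.5% of all promoters. The share in the core and regulatory particle was near that of all genes tested. CCAAT, bound by NF-Y, was in 6 of 11 core promoters (54.5%), 4 of 16 regulatory particle promoters (25.0%) and 37.8% of those of genes tested. GCGCATGC, bound by nuclear respiratory factor 1, was in 2 of 27 (7.41%) core and regulatory particle promoters, against 5.57%. A match is a description of the letters and not a site shown to be bound.

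The stretches that hold the antioxidant response element letters in the promoters of core and regulatory particle genes are shown to place the letters. Whether Nfe2l1 acts on these genes in the cultures was not tested. Each is 70 bases upstream of the start on the plus strand, with the match, on either strand, in capitals. They lie at chr11:70525287-70525356 (Psmb6), chr14:45329574-45329643 (Psmc6), chr11:107479278-107479347 (Psmd12) and chr5:123228120-123228189 (Psmd9) of GRCm38.p6.
Psmb6: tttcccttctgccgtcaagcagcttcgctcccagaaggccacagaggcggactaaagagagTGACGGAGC
Psmc6: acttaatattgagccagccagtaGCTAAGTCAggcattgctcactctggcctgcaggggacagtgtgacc
Psmd12: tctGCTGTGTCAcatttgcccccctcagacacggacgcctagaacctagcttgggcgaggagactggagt
Psmd9: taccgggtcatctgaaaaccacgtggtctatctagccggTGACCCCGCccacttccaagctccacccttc
Of these 4 genes, Psmc6 and Psmd12 were called higher and Psmb6 and Psmd9 did not pass, while Uchl1, Psmb4 and Psmd6 had none of the 3 motifs in this window.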

How the data were processed

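Polyadenylated RNA of 3 DRG neuron cultures and 2 CGN cultures was sequenced on the Illumina Genome Analyzer II. Reads were placed on mm9 by the authors (TopHat, Bowtie), who assembled and classed transcripts by Cufflinks and Cuffcompare against a combined UCSC, Ensembl and RefSeq annotation, and deposited FPKM per isoform from Cuffdiff with upper-quartile normalization, with confidence bounds, once per library and once per cell type. Their fold change, test statistic, p-value and call were not used. The study gives read totals per library, but read counts per gene were not used here, so the number of reads behind an FPKM value is not given.

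Isoforms were summed per gene. Genes at FPKM of at least 50 in at least 2 libraries were tested on log2(FPKM + 50) by the moderated test of limma (version 3.58.1, R version 4.3.3), with a trended prior and all 5 libraries, with Benjamini-Hochberg adjustment over all genes and a threshold of 0.05. Single isoforms were tested in the same way. The test was first run on simulated data. Standard errors are those of limma. As alternatives, the pseudocount was set to 1 or 10, the filter was dropped or raised to 100 FPKM, and the fit was repeated with 3 other scalings, reference transcripts only, no trend, a replicate block and each library left out in turn. Summaries were computed with pandas 2.3.3 and numpy 2.4.6, plots with matplotlib 3.10.9, under Python 3.11.15.

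Transcript windows of 50 bases were matched to NCBIM37, with loci of 89 and transcripts of 87 members found in GENCODE M1. Promoter sequences are those of RefSeq (GRCm38.p6). Older symbols were matched through RefSeq synonyms. Values of some listed genes are not reported here. Genes were named by role, as the 3 highest of each role group, as up to 5 called each way with no overlap of libraries, as the member nearest the median fold change of the whole list, and by isoform changes. The members, lists and naming rule were chosen with earlier results of these data known.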

Additional observations from a re-analysis of the deposited data

How the results depend on the processing

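Of the 43 members called, 18 were called the same way under all 3 other scalings, 10 under every alternative that tested them, and 1 changed direction under any alternative. Equal total FPKM left 2288 genes higher and 3459 lower, with 4 core, 8 regulatory particle and 1 activator or assembly gene higher, and 5 deubiquitinases higher and 15 lower. Quantile normalization gave 2798 genes lower, with 3 core and 9 regulatory particle genes higher and 10 deubiquitinases lower, and median ratio scaling 2747 genes and 11 deubiquitinases lower. With reference transcripts only, 668 genes were lower, 5 core genes and 8 deubiquitinases higher and 1 deubiquitinase lower. Limma without trend called 9 regulatory particle genes and 9 isoforms higher, and a pseudocount of 1 called 1 deubiquitinase lower. Member isoforms numbered 10 higher and 4 lower with no filter, and 14 higher and 21 lower with equal total FPKM.

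Leaving out 1 library at a time gave 2233 to 4535 genes higher and 359 to 1330.0 lower. The core then had 3 to 9 genes higher and 0 to 1 lower, the regulatory particle 6 to 18 higher, activators and assembly factors 0 to 5 higher, and deubiquitinases 8 to 16 higher and 1 to 3 lower. Isoforms ranged from 2 to 42 higher and 0 to 1 lower. The lone library of a cell type was then assumed to vary like the other group. The cause of these shifts was not tested.

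The labels do not say whether the replicate numbers pair the libraries. Deviations of same-numbered libraries correlated at -0.023 and 0.008. With 2 CGN libraries, whose deviations mirror each other, these values cannot decide whether the libraries were paired. The fit with a replicate block called 2444 genes higher, and 2 core, 4 regulatory particle, 1 activator or assembly and 5 deubiquitinase genes higher, with 14 isoforms higher. Of the 43 called members 14 were called with the block. The block put Psmc3ip at 0.43 and Psme1 at 0.24.

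Log2 fold changes that changed sign were those of genes not called, apart from Usp35, at -1.72 with reference transcripts only. With equal total FPKM, median ratio scaling and quantile normalization, values were -0.59, -0.32 and -0.30 for Psmd9, -0.31, -0.041 and -0.23 for Psme3, -0.45, -0.18 and -0.39 for Psme4, -0.76, -0.50 and -0.43 for Uchl4, and -0.53, -0.27 and -0.24 for Usp34. Quantile normalization gave -0.028 for Psmd3 and -0.10 for Psmd8, and equal total FPKM -0.10 for Psmd5. Usp6nl was at 0.54 with a pseudocount of 1 and 0.33 with 10. Leaving out 1 library gave -0.62 to 0.28 for Psmb7, -0.89 to 0.61 for Psmc3ip, -0.039 to 0.73 for Psmd9, -0.75 to 0.24 for Psme1, -0.29 to 0.60 for Uchl4, -0.53 to 0.20 for Usp22 and -1.93 to 1.87 for Usp6nl.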
